A study of Saccharomyces cerevisiae with 9 samples.

Results

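The 10 genes described here make and remodel the carbohydrate of the budding yeast cell wall: the glucan and chitin synthesis genes FKS1 (YLR342W), GSC2 (YGR032W), KRE6 (YPR159W) and CHS3 (YBR023C), and the remodelling genes GAS1 (YMR307W), BGL2 (YGR282C), EXG1 (YLR300W), SCW4 (YGR279C), SCW10 (YMR305C) and CRH1 (YGR189C). They were chosen by gene name for their function, with earlier results of these data known, and they are 10 of the 7128 gene rows of the count table. All 10 passed the filter on low counts that left 6338 genes to be tested. RNA was sequenced from 3 strains in log phase, each with 3 biological replicates: MOXop, which overexpressed moxGFP, a green fluorescent protein without cysteine; GFPop, which overexpressed EGFP; and Vector, which carried the empty plasmid. All strains were the diploid BY4743, homozygous for his3, leu2 and ura3 deletions and heterozygous for lys2 and met15 deletions, grown without leucine and uracil. The proteins were expressed from the TDH3 promoter of a multicopy plasmid with URA3 and a weak leu2 marker, so that selection for leucine pushes the copy number up until the burden of the insert limits it. Copy number was not measured in these data, so it cannot be told apart from the identity of the protein as a difference between the strains.

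The yeast wall is a mesh of β-glucan with mannoproteins on its outer face and a small amount of chitin, mostly at the bud neck. A β-1,3-glucan synthase in the plasma membrane spins out the main fibre, and enzymes in the wall then cut, elongate, branch and cross-link it as the bud grows. Cells that damage or weaken this mesh signal through the cell wall integrity pathway, a Rho1, Pkc1 and MAP kinase cascade that can raise transcription of wall genes such as GSC2 and CRH1.

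Gene counts summed to between 8941674 and 9064524 per library in MOXop, 7022201 and 9569895 in GFPop, and 10643868 and 12959660 in Vector. The 10 genes together took 1.48%, 0.256% and 1.02% of the gene counts in MOXop replicates 1, 2 and 3, 1.2% to 1.51% in GFPop and 1.56% to 1.8% in Vector. These totals include ribosomal RNA and the overexpressed transcript, whose shares differed between libraries, so the percentages do not compare the strains directly. The moxGFP entry held 4.11% to 31.1% of the counts in MOXop libraries and the EGFP entry 11.2% to 23.8% in GFPop libraries, and in Vector libraries the EGFP entry held at most 0.000675%. As a check of the diploid label, 11 of 12 haploid-specific and mating-type genes, those that passed the filter and which an a/α diploid keeps low, summed to 81.3 to 87.2 CPM (counts scaled by library size and TMM factor) in MOXop, 65.6 to 83.9 CPM in GFPop and 83.6 to 92.6 CPM in Vector, with no single gene above 20.2 CPM in any library. Within the list genes differed in direction in MOXop against Vector: MF(ALPHA)1 was 15.7-fold, MFA1 6.81-fold and MF(ALPHA)2 4.04-fold higher (FDR 0.000475, 0.0206 and 0.0142), and BAR1, FUS1 and GPA1 were called lower (FDR 0.00998, 0.0301 and 0.0298). Without MOXop replicate 2 the log2 fold changes of the genes called higher were 4.06, 1.61 and 1.46, against 3.97, 2.77 and 2.02 with it. MFA1 had only 1.67, 9.33 and 1.93 CPM in MOXop. These folds also rest on low Vector values. There MF(ALPHA)1 had 1.19, 0.824 and 1.14 CPM, MFA1 0.711, 0.674 and 0.381 CPM, and MF(ALPHA)2 2.02, 1.87 and 1.52 CPM. In GFPop against Vector, MF(ALPHA)1 was called higher (3.38-fold, FDR 0.0177) and GPA1 lower (FDR 0.00793). MOXop replicate 2 stood apart: ribosomal RNA took 61.1% of its counts, against 2.73% to 23% in the other libraries, and its log2 CPM correlated with the other MOXop libraries at r of 0.804 to 0.807, against 0.949 to 0.975 for the other replicate pairs. Of the 10 genes, 5 (FKS1, KRE6, CHS3, GAS1 and EXG1) had their lowest value of all 9 libraries there, as did 28.8% of all genes tested. The calls of the 10 genes are given with and without this library, as are most counts of the lists against Vector. Levels below are CPM after TMM normalization, listed for replicates 1, 2 and 3, and a gene was called higher or lower at a false discovery rate (FDR) below 0.05 in edgeR's quasi-likelihood test over all genes.

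In all, 4 of the 10 genes fell in MOXop against Vector (FKS1, CHS3, GAS1 and CRH1) and 0 rose, where 14% of all genes tested were called lower and 14.8% higher. GAS1 fell in GFPop against Vector and 0 rose, beside 7.76% of all genes called lower and 7.6% higher. Between the overexpressing strains, CHS3 and CRH1 were lower in MOXop than in GFPop and 0 were higher, beside 7.07% of all genes called lower and 7.48% higher. The median log2 fold change of the 10 genes was -1.10 in MOXop against Vector, where that of all genes tested was 0.14. In GFPop against Vector it was -0.31 against 0.09 for all genes, and in MOXop against GFPop it was -0.33 against 0.01. Without MOXop replicate 2 the medians of the 10 genes were -0.89, -0.35 and -0.096 in these comparisons, in the same order. Those of all genes were then 0.052, 0.046 and 0.015. Both comparisons with Vector share the same 3 control libraries. Without MOXop replicate 2, the genes called lower were 5 in MOXop against Vector (KRE6 in addition), beside 18.8% of all genes, 4 in GFPop against Vector (FKS1, GAS1, BGL2 and EXG1), beside 17.2%, and CHS3 and CRH1 again in MOXop against GFPop, beside 10.1%. The 3 strains share 1 estimate of the spread in the fit, so a MOXop library also enters the test of GFPop against Vector. A fit of only GFPop and Vector called the same 4 genes lower, beside 1055 of 6302 genes. These values are relative to the other transcripts of each library, so less RNA of a gene per cell and more RNA of the rest cannot be told apart. The same genes were called when the ribosomal RNA, transgene and marker rows were left out of the table. With library sizes alone, or with the spike-in RNA as the library size, 0 of the 10 genes were called in any comparison, and few genes of the table were (34 to 144 lower with library sizes alone and 2 to 17 with spike-ins). The folds of the called genes kept their direction with larger standard errors: GAS1 in GFPop against Vector was -1.08 (SE 0.60) with library sizes alone and -1.65 (SE 0.83) with spike-ins, and CRH1 in MOXop against Vector was -1.49 (SE 0.52) and -1.60 (SE 0.85).

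**Figure D1:**
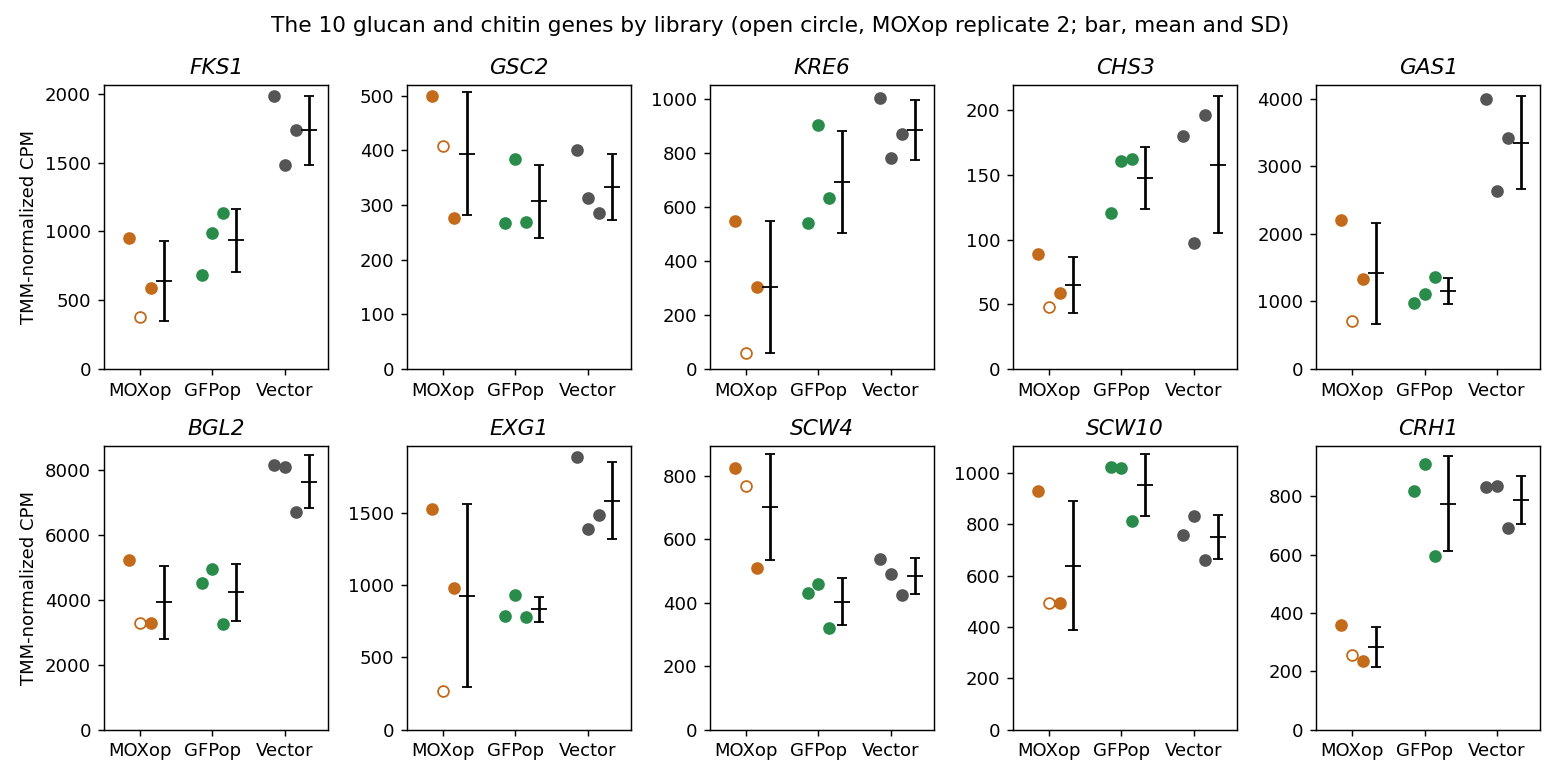
Normalized CPM (vertical axes, linear from 0) of the 10 genes in each of the 9 libraries, with the mean and SD of each group (n = 3) as a bar; the open circle is MOXop replicate 2. FKS1, KRE6, CHS3, GAS1, BGL2 and CRH1 have all 3 MOXop points below all 3 Vector points, and the GFPop points of CRH1 lie at the height of Vector.

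FKS1 encodes the catalytic subunit of β-1,3-glucan synthase that growing cells mainly use. It stood at 949.5, 379 and 589 CPM in MOXop, at 682, 991 and 1135 CPM in GFPop and at 1983, 1485 and 1738 CPM in Vector. Every MOXop and every GFPop library lay below the lowest Vector library, and the overexpressing strains overlapped each other. FKS1 was 2.71-fold lower in MOXop than in Vector (log2 fold change -1.44, SE 0.39, FDR 0.0193), and without MOXop replicate 2 the log2 fold change was -1.18 (FDR 0.0151). The call was lost without MOXop replicate 3, Vector replicate 1 or Vector replicate 3 (FDR 0.0548 to 0.0805). In GFPop against Vector the log2 fold change was -0.89 (SE 0.38, FDR 0.14), which did not pass, and without MOXop replicate 2 the same contrast gave -0.94 (FDR 0.0258).

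GSC2, also called FKS2, encodes the alternative catalytic subunit, which is induced by stress, calcium signalling and starvation. Its levels were 499, 407 and 276 CPM in MOXop, 267, 384 and 269.6 CPM in GFPop and 401, 313 and 285 CPM in Vector. The 3 groups overlapped. The log2 fold change was 0.24 in MOXop against Vector (95% interval -0.44 to 0.93, FDR 0.569) and -0.12 in GFPop against Vector (95% interval -0.80 to 0.56, FDR 0.834). After removal of MOXop replicate 2, these were 0.22 (FDR 0.608) and -0.16 (FDR 0.687). The coding sequences of FKS1 and GSC2 are 81.6% identical over 92.9% of FKS1, so reads in their shared stretches could have been assigned to either gene.

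The observed balance of the synthase pair lay apart between the strains, but no test of it passed. Within each library the ratio of GSC2 to FKS1 counts, which needs no normalization, was 0.526, 1.07 and 0.469 in MOXop, 0.392, 0.387 and 0.238 in GFPop and 0.202, 0.211 and 0.164 in Vector. The 3 groups did not overlap in any pairing. The log2 difference of the ratio was 1.75 in MOXop against Vector, 0.79 in GFPop against Vector and 0.96 in MOXop against GFPop, and without MOXop replicate 2 it was 1.38 and 0.59 in the MOXop comparisons. Two-sided exact permutation tests gave p = 0.1 in each, the smallest that 3 against 3 allows (0.107 after adjustment over the 15 ratio comparisons made), and the ratios were chosen after the values had been seen.

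KRE6 encodes a type II membrane protein of the secretory pathway that is needed for β-1,6-glucan, the polymer that ties cell wall proteins to the mesh. It stood at 549, 59.5 and 304 CPM in MOXop, 541, 905 and 634 CPM in GFPop and 1005, 781 and 869 CPM in Vector. All MOXop libraries lay below all Vector libraries, and MOXop replicate 2 was at 0.14 of the mean of the other MOXop libraries. The log2 fold change in MOXop against Vector was -1.54 (SE 0.60, FDR 0.0718), past the threshold only when that library was left out (-1.06, FDR 0.0251) or replicate 1 was (-2.27, FDR 0.0189), and in the DESeq2 Wald test. In GFPop against Vector it was -0.35 (95% interval -1.63 to 0.93). KRE6 is 74.5% identical to SKN1 over 73.1% of its coding sequence.

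CHS3 encodes chitin synthase III, which makes most of the chitin of the wall and the ring at the base of the bud. CHS3 had 89.3, 47.5 and 58.5 CPM in MOXop, 120.3, 161 and 162 CPM in GFPop and 180.4, 97.3 and 196 CPM in Vector. The MOXop libraries lay below every library of the other strains, while GFPop lay within the range of Vector. It was 2.42-fold lower in MOXop than in Vector (log2 fold change -1.28, SE 0.34, FDR 0.0194) and 2.26-fold lower in MOXop than in GFPop (-1.18, SE 0.34, FDR 0.0426). The log2 fold change of GFPop against Vector was -0.10 (95% interval -0.84 to 0.64). When MOXop replicate 2 was left out, the MOXop changes were -1.10 against Vector (FDR 0.0165) and -0.96 against GFPop (FDR 0.0466). Against Vector the call was lost without MOXop replicate 3, Vector replicate 1 or Vector replicate 3 (FDR 0.0622 to 0.0827). The call against GFPop was lost when any GFPop library, MOXop replicate 3 or Vector replicate 1 or 3 was left out, with FDR of 0.0616 to 0.153. It was also lost in a fit of only the 2 groups (FDR 0.0745) and with a replicate block (FDR 0.0569), and CHS3 is the least abundant of the 10 genes.

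**Figure D2:**
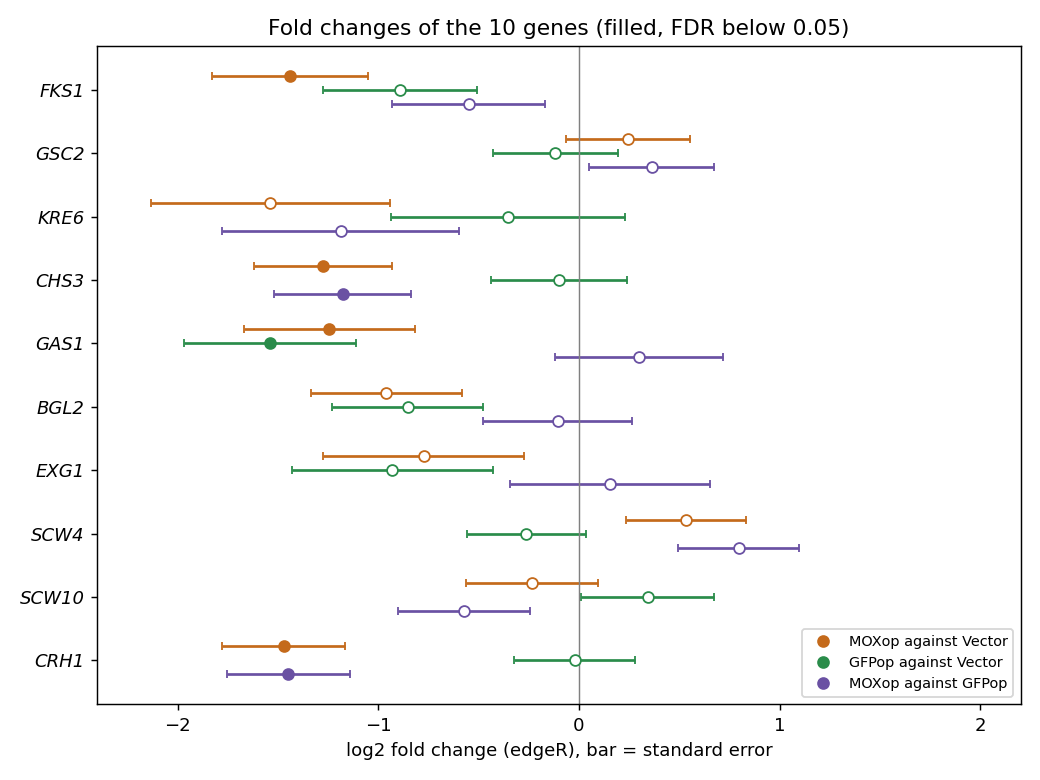
Log2 fold change (horizontal axis) with its standard error for the 10 genes in MOXop against Vector, GFPop against Vector and MOXop against GFPop, top to bottom within each gene; filled circles passed FDR 0.05. Filled circles are 7 and all of them are negative; CHS3 and CRH1 are filled in both MOXop comparisons and lie near 0 in GFPop against Vector.

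Among the remodelling enzymes, GAS1, which encodes a β-1,3-glucanosyltransferase that elongates glucan chains, was low in both overexpressing strains. Its levels were 2200.1, 712 and 1333 CPM in MOXop, 978, 1114 and 1362 CPM in GFPop and 4004, 2632 and 3418 CPM in Vector. Every overexpressing library lay below the lowest Vector library. GAS1 was 2.37-fold lower in MOXop than in Vector (log2 fold change -1.24, SE 0.42, FDR 0.0478) and 2.91-fold lower in GFPop than in Vector (-1.54, SE 0.43, FDR 0.0338). The log2 fold change of MOXop against GFPop was 0.30 (95% interval -0.62 to 1.22). Both calls were near the threshold: that of GFPop was lost when any GFPop or any Vector library was left out (FDR 0.0521 to 0.141), and that of MOXop when any library but MOXop replicates 1 and 2 was (FDR 0.0644 to 0.158). The call of MOXop was also lost with no filter on low counts (FDR 0.0562) and in a fit of only the 2 groups (FDR 0.108). Without MOXop replicate 2 the changes were -0.93 (FDR 0.0496) in MOXop and -1.59 (FDR 0.00161) in GFPop.

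BGL2 encodes an abundant glucosyltransferase of the wall, which forms β-1,6 linkages on β-1,3-glucan. It had 5238, 3286 and 3280.4 CPM in MOXop, 4510.4, 4944 and 3258 CPM in GFPop and 8162, 8098 and 6708 CPM in Vector. The overexpressing strains overlapped each other and lay below Vector, without a gene call: the log2 fold changes were -0.96 in MOXop (SE 0.38, FDR 0.0745) and -0.85 in GFPop (SE 0.38, FDR 0.149). After removal of MOXop replicate 2, GFPop passed (-0.90, FDR 0.0488) and MOXop did not (-0.85, FDR 0.0866). MOXop passed without its replicate 1 (-1.22, FDR 0.0375), and both strains passed in the DESeq2 Wald test (-1.01, FDR 0.00424, in MOXop and -0.92, FDR 0.015, in GFPop).

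EXG1 encodes the major exo-β-1,3-glucanase, which removes glucose units from chain ends. Its levels were 1528, 268 and 983 CPM in MOXop, 783, 932 and 780.3 CPM in GFPop and 1883, 1386 and 1484 CPM in Vector. MOXop overlapped both other groups and had the widest spread, while GFPop lay wholly below Vector. The log2 fold change was -0.77 in MOXop against Vector (95% interval -1.87 to 0.33) and -0.93 in GFPop against Vector (SE 0.50, FDR 0.236). Leaving out MOXop replicate 2 gave -0.34 in MOXop (FDR 0.407) and -0.98 in GFPop, which then passed (FDR 0.0155). EXG1 is 70.5% identical to the sporulation glucanase SPR1 over 87.2% of its coding sequence.

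Groups that did not overlap, counted over the 10 genes, were 6 in MOXop against Vector, 4 in GFPop against Vector and 3 in MOXop against GFPop, beside 45.3%, 45.8% and 35.8% of all genes tested. All 6 and all 4 had the lower values in the overexpressing strain. Of all 6338 genes tested, 1419 and 1343 did not overlap in that direction. The 3 of MOXop against GFPop were CHS3 and CRH1, lower in MOXop, and SCW4, higher in MOXop, beside 1207 lower and 1063 higher of all genes.

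SCW4 and SCW10 encode a pair of related wall proteins of the same glucanase family as Bgl2. SCW4 had 824, 768 and 511 CPM in MOXop, 431, 460.4 and 321 CPM in GFPop and 536, 492 and 424 CPM in Vector. SCW10 had 931, 494 and 493 CPM in MOXop, 1023, 1019.8 and 813 CPM in GFPop and 758, 834 and 662 CPM in Vector. So SCW4 was highest in MOXop and SCW10 in GFPop, by mean, but neither passed the test in any comparison. SCW4 gave 0.80 on the log2 scale in MOXop against GFPop (SE 0.30, FDR 0.0885), 0.53 in MOXop against Vector (FDR 0.19) and -0.26 in GFPop against Vector (FDR 0.589). SCW10 gave -0.57 in MOXop against GFPop (SE 0.33, FDR 0.249), -0.23 in MOXop against Vector (FDR 0.612) and 0.34 in GFPop against Vector (FDR 0.52). When MOXop replicate 2 was left out, SCW4 gave 0.77 (FDR 0.0766) and SCW10 -0.38 (FDR 0.427) in MOXop against GFPop. The pair shares 72.4% identity over 66.7% of SCW4.

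Set against each other within a library, the observed balance of the pair lay on opposite sides of Vector in the 2 overexpressing strains. The ratio of SCW4 to SCW10 counts was 0.884, 1.55 and 1.04 in MOXop, 0.421, 0.451 and 0.394 in GFPop and 0.708, 0.59 and 0.641 in Vector. MOXop lay above Vector and GFPop below it, with no overlap. The log2 differences were 0.80 in MOXop against Vector, -0.61 in GFPop against Vector and 1.42 in MOXop against GFPop (exact permutation p = 0.1 in each, the smallest possible), and 0.57 and 1.18 in the MOXop comparisons without replicate 2. Both genes were higher relative to BGL2 in every overexpressing library than in any Vector library (exact permutation p = 0.1 in each comparison). The ratio of SCW4 to BGL2 was 0.157, 0.234 and 0.156 in MOXop, 0.0954, 0.0931 and 0.0984 in GFPop and 0.0657, 0.0608 and 0.0632 in Vector, and that of SCW10 to BGL2 was 0.178, 0.15 and 0.15 in MOXop, 0.227, 0.206 and 0.25 in GFPop and 0.0928, 0.103 and 0.0987 in Vector.

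**Figure D3:**
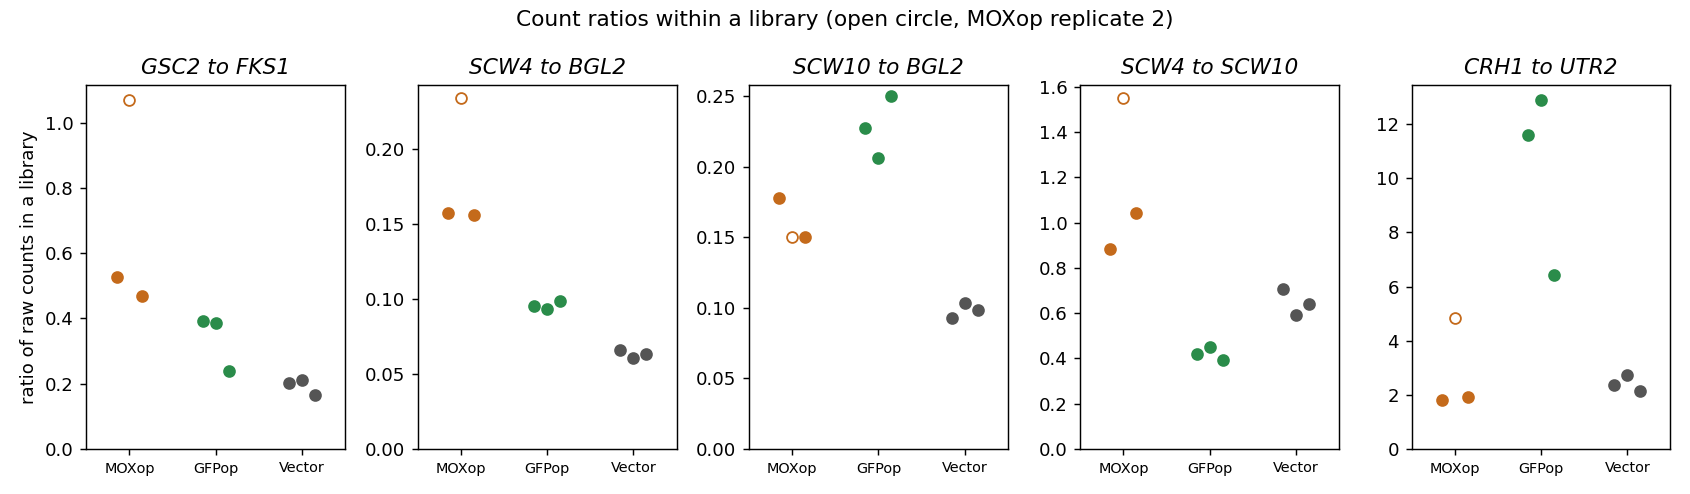
Ratio of the raw counts of 2 genes within each library (vertical axes, linear from 0) for 5 pairs; the open circle is MOXop replicate 2. GSC2 to FKS1 and SCW4 to BGL2 are highest in MOXop and lowest in Vector, SCW10 to BGL2 and CRH1 to UTR2 are highest in GFPop, and SCW4 to SCW10 is above Vector in MOXop and below it in GFPop.

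CRH1 encodes a transglycosylase that links chitin to β-glucan, with UTR2 and CRR1 as its relatives. CRH1 had 360.2, 256 and 234 CPM in MOXop, 819, 909.9 and 594 CPM in GFPop and 833, 835 and 691 CPM in Vector. The MOXop libraries lay below every other library, and GFPop overlapped Vector. CRH1 was 2.77-fold lower in MOXop than in Vector (log2 fold change -1.47, SE 0.31, FDR 0.0071) and 2.73-fold lower in MOXop than in GFPop (-1.45, SE 0.31, FDR 0.0146), whereas GFPop against Vector gave -0.02 (95% interval -0.68 to 0.64). The call against Vector held whichever library was left out. Without MOXop replicate 2 the changes were -1.41 (FDR 0.00402) against Vector and -1.34 (FDR 0.0099) against GFPop. The call against GFPop was lost without GFPop replicate 1 or 2 (FDR 0.0557 and 0.0852) and in a fit of only the 2 groups (FDR 0.0555).

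UTR2 fell in both strains. It had 198, 52.8 and 123 CPM in MOXop, 70.5, 70.8 and 92.5 CPM in GFPop and 353, 304 and 324 CPM in Vector (log2 fold change against Vector -1.39, FDR 0.0259, in MOXop and -2.07, FDR 0.00897, in GFPop). The CRH1 to UTR2 count ratio was 1.82, 4.85 and 1.91 in MOXop, 11.6, 12.9 and 6.42 in GFPop and 2.36, 2.74 and 2.13 in Vector. The GFPop libraries lay above all others (exact permutation p = 0.1 against either group), and MOXop overlapped Vector (p = 1).

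Per kilobase of coding sequence, which allows levels to be compared between genes, BGL2 was the most abundant and CHS3 the least in every strain. BGL2 averaged 4177 ± 1198 CPM per kb in MOXop, 4498 ± 929 in GFPop and 8127 ± 872 in Vector (SD, n = 3), and CHS3 averaged 18.6 ± 6.18 CPM per kb in MOXop, 42.2 ± 6.77 in GFPop and 45.2 ± 15.2 in Vector. In Vector the order between them was GAS1 (1995), EXG1 (1176), SCW10 (642), CRH1 (516), SCW4 (417), KRE6 (409), FKS1 (308) and GSC2 (58.5 CPM per kb). In that order, CRH1 and SCW4, SCW4 and KRE6, and GSC2 and CHS3 overlapped with their neighbour over the 3 libraries. In MOXop, GAS1 (842), EXG1 (688), SCW4 (604) and SCW10 (547 CPM per kb) formed 1 overlapping run, and CRH1 (186), KRE6 (141), FKS1 (113) and GSC2 (69.3 CPM per kb) another. In GFPop, SCW10 (814), GAS1 (685), EXG1 (617), CRH1 (508), SCW4 (348) and KRE6 (321 CPM per kb) formed 1 overlapping run. SCW10 and GAS1 are neighbours in the genome with only FKS3 between them.

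**Figure D4:**
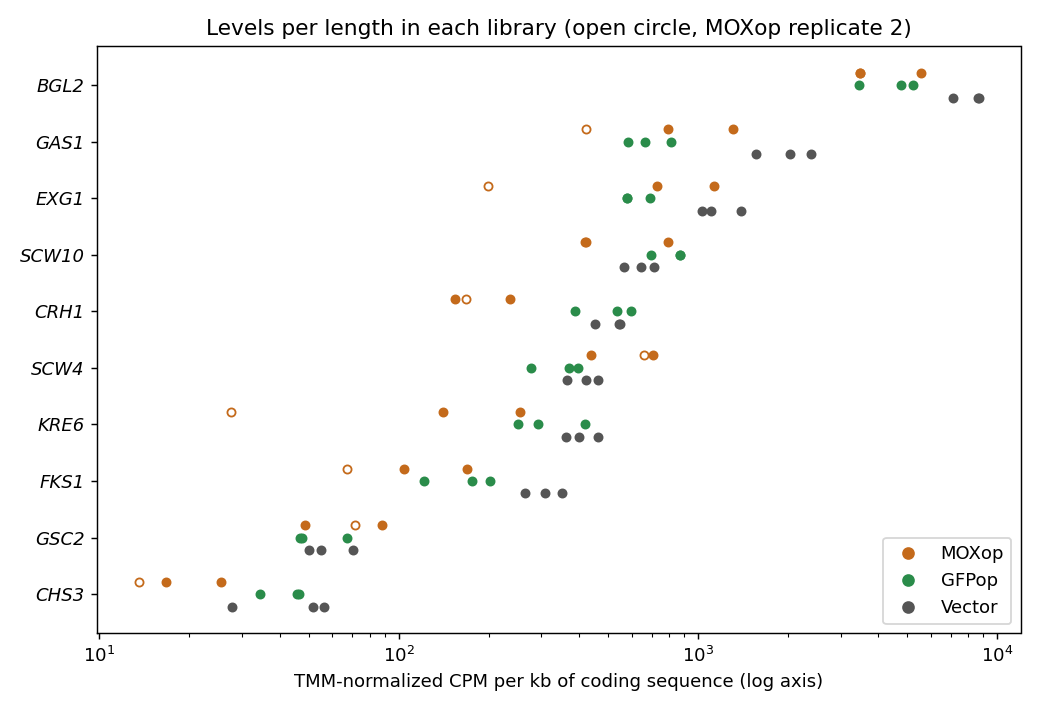
Normalized CPM per kb of coding sequence (horizontal log axis) of the 10 genes in each library, ordered by the Vector mean, with MOXop above GFPop above Vector within each gene; the open circle is MOXop replicate 2. BGL2 stands apart at the high end in every strain, and GSC2 and CHS3 at the low end in Vector.

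Other genes of the same processes were read from 4 lists. Of 12 further glucan remodelling and hydrolysis genes, 5 fell and 0 rose in MOXop against Vector (median log2 fold change -0.93), and 6 fell and 0 rose in GFPop against Vector (median -1.71), beside 14% and 7.76% of all genes called lower. The shares of all genes called higher were 14.8% and 7.6%. After removal of MOXop replicate 2, 6 fell in MOXop, beside 18.8% of all genes, and 9 fell in GFPop, beside 17.2%. GAS2 then rose in GFPop (1.23, FDR 0.00156), beside 14.8% of all genes called higher. GAS5, a relative of GAS1, fell in both (-2.19, FDR 0.00778, in MOXop and -1.72, FDR 0.03, in GFPop), and GAS3 fell in GFPop (-1.82, FDR 0.0106). SPR1 and CRR1, which are known from sporulation, fell in both strains, SPR1 by 2.26 on the log2 scale in MOXop (FDR 0.00215) and by 2.69 in GFPop (FDR 0.00137). The exo-glucanase EXG2 fell in MOXop (-1.33, FDR 0.00991), with -0.28 in GFPop. DSE2, a daughter-cell glucanase that helps separate mother and bud, had 2062, 283 and 1274 CPM in MOXop, 135, 123 and 367 CPM in GFPop and 1595, 1427 and 1235 CPM in Vector. It fell in GFPop against Vector (-2.77, FDR 0.0178) and was higher in MOXop than in GFPop (2.54, FDR 0.0283). When MOXop replicate 2 was left out, 5 genes of this list were higher in MOXop than in GFPop (GAS3, SCW11, DSE2, DSE4 and UTR2), beside 11.6% of all genes, and 2 were lower (GAS2 and EXG2), beside 10.1%.

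Of 11 other glucan synthesis genes, 1 fell in MOXop and 0 changed in GFPop, each against Vector. Of all genes, 14% were called lower in MOXop, and 7.76% lower and 7.6% higher in GFPop. Without MOXop replicate 2, 3 rose in GFPop (KNH1, KRE1 and SKN1), beside 14.8% of all genes, and KNH1 rose in MOXop (1.24, FDR 0.0111), beside 18.5%. The gene that fell was UGP1, the pyrophosphorylase that makes UDP-glucose, the sugar donor for glucan synthesis, with 114, 76.7 and 68.3 CPM in MOXop, 321, 360.0 and 299.9 CPM in GFPop and 326, 204 and 384 CPM in Vector. It was 3.52-fold lower in MOXop than in Vector (log2 fold change -1.82, SE 0.32, FDR 0.00379) and 3.78-fold lower than in GFPop (-1.92, FDR 0.00706). Of 16 tested chitin synthesis and turnover genes, 4 fell and 0 rose in MOXop against Vector, and 2 fell and 0 rose in GFPop against Vector, beside 14% and 7.76% of all genes called lower. The shares called higher were 14.8% and 7.6%. After removal of MOXop replicate 2, 5 fell in MOXop, beside 18.8% of all genes. In GFPop 2 then fell, beside 17.2%, and BUD7 and CDA1 rose (FDR 0.0162 and 0.0262), beside 14.8%. GFA1, which commits fructose-6-phosphate to the chitin precursor, fell in MOXop (-1.35, FDR 0.0111) and was lower there than in GFPop (-1.51, FDR 0.0144). PCM1, a later enzyme of the same route, fell in both strains (-1.70, FDR 0.00302, in MOXop and -0.91, FDR 0.0494, in GFPop). CHS2, the septum chitin synthase, fell in MOXop (-1.53, FDR 0.0134), as did BCH1, which helps export Chs3 to the cell surface (-1.54, FDR 0.035). The chitinase gene CTS1 fell in GFPop (-1.85, FDR 0.0432), and without MOXop replicate 2 it was higher in MOXop than in GFPop (2.02, FDR 0.0047).

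Of 17 genes of the cell wall integrity pathway, 8 were called higher and 0 lower in GFPop against Vector, with 4 negative estimates (median log2 fold change 0.85, all genes 0.09), beside 7.6% of all genes called higher, and 10 rose without MOXop replicate 2, beside 14.8%. The 8 were the exchange factor ROM1 (1.72, FDR 0.0114), the kinases PKC1 (1.24, FDR 0.0223), BCK1 (0.85, FDR 0.0451), MKK2 (1.12, FDR 0.0295) and SLT2 (1.22, FDR 0.00826), and the transcription factors RLM1 (1.40, FDR 0.0221), SWI4 (1.18, FDR 0.0305) and SWI6 (1.03, FDR 0.0406). SLT2, the MAP kinase of the pathway, had 39.6, 36.5 and 44 CPM in MOXop, 103, 105 and 83.9 CPM in GFPop and 37.3, 48.3 and 39.6 CPM in Vector, so that GFPop lay above all other libraries. These calls depended on the libraries used, as did those of all genes, of which 482 were called higher with all 9 libraries. Without Vector replicate 1, 0 genes of the 4 lists were called higher in GFPop, beside 106 of all genes. When a GFPop library or another Vector library was left out, 2 to 4 were, beside 184 to 362. With a replicate block 4 were called higher, beside 348 of all genes, and with library sizes alone 0, beside 81. In MOXop against Vector 2 of the 17 rose, SWI4 (1.32, FDR 0.0127) and SWI6 (0.93, FDR 0.04), and 4 fell, the wall sensors WSC2 (-0.91, FDR 0.0494), WSC3 (-0.88, FDR 0.0398), MID2 (-1.63, FDR 0.041) and MTL1 (-1.62, FDR 0.0324), beside 14.8% of all genes called higher and 14% lower. When MOXop replicate 2 was left out, SWI6 and WSC2 did not pass (FDR 0.0574 and 0.0649) and RLM1 did (1.03, FDR 0.0164). SLT2 and ROM1 were lower in MOXop than in GFPop (-1.28, FDR 0.0104, and -1.56, FDR 0.0214), and WSC3 was at the threshold (-0.94, FDR 0.04998, and 0.0511 without MOXop replicate 2). With spike-ins as the library size, 0 genes of the 4 lists were called in any comparison. Of all genes, 2 to 11 were called higher and 2 to 17 lower there. Of the 14 genes of the lists called lower in MOXop against Vector, the count was 9 without MOXop replicate 3, 6 without Vector replicate 1 and 7 without Vector replicate 3. Over all genes the lower calls were 516, 404 and 546 in these fits, against 887 with all 9 libraries. The 8 list genes called lower in GFPop against Vector became 3 to 5 without GFPop replicate 1 or 2 or any Vector library. Over all genes the lower calls were 168 to 380 in these fits, against 492. CDA2, of the chitin list, did not pass the filter, and MID2 and GFA1 each overlap another annotated gene.

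**Figure D5:**
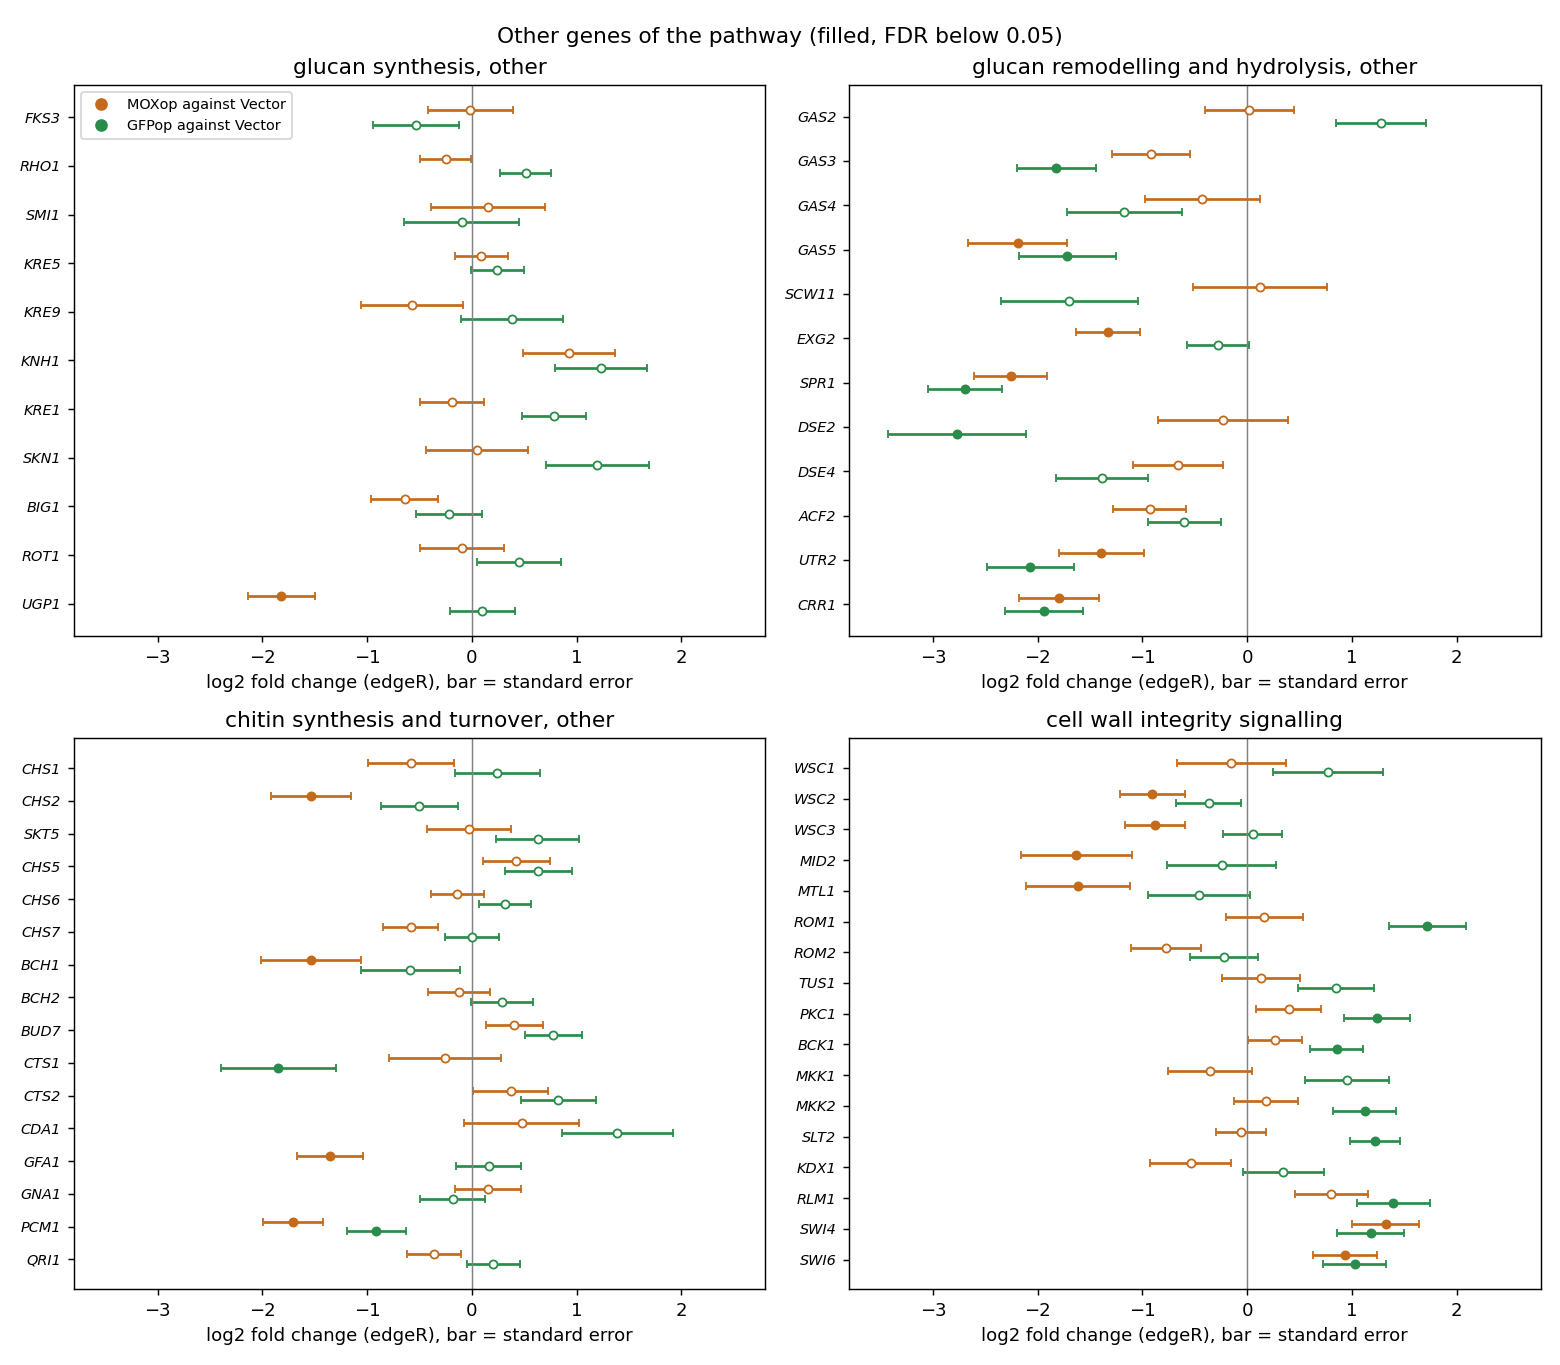
Log2 fold change with standard error (horizontal axes) of the tested genes of 4 lists in MOXop against Vector (upper mark) and GFPop against Vector (lower mark); filled circles passed FDR 0.05. In the remodelling list the 11 filled marks lie below 0, and in the cell wall integrity list the 8 filled GFPop marks lie above 0 while MOXop has 2 filled marks above 0 and 4 below.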

How the data were processed

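Total RNA was extracted with hot phenol and sequenced paired-end from stranded total RNA libraries with ERCC spike-ins, in 9 libraries (3 strains, 3 biological replicates). The deposited table holds raw read counts per gene, which the authors made after trimming with FastP, alignment with HISAT2 2.2.0, SAMtools 1.11 and StringTie, and tested with edgeR 3.28.1. The genome build, annotation and strand setting of the counting were not given in the sources used here. Here edgeR 4.0.16 (R 4.3.3, limma 3.58.1) was run on the counts of 7128 gene rows with the 92 spike-in rows left out, TMM factors, the filterByExpr filter (6338 genes) and the quasi-likelihood F test in 1 fit of all 9 libraries by strain, with Benjamini-Hochberg adjustment over all genes tested and FDR 0.05 as the threshold. The code was tested on simulated data in which 200 of 6287 genes changed 4-fold. Of the calls made there in GFPop against Vector, 6.13% were false with the edgeR test and 10% with the DESeq2 Wald test. Coding lengths, neighbours and overlaps came from the RefSeq R64 annotation, and similarity between coding sequences from BLAST 2.17.0. The annotation of the counts may differ from it.

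The 10 genes and the lists were chosen with earlier results of these data known. All 10 genes are named, with the genes of each list that passed FDR 0.05 and at most 4 that did not. Ratios of raw counts were compared with 2-sided exact permutation tests of 3 libraries against 3. Replicates differed by more than sampling noise (lowest chi-square per degree of freedom 43.4), so each was counted once. The p-values cover the spread between these cultures. Alternatives were DESeq2 1.42.0 (size factors and Wald test), library sizes alone, spike-ins as library size, no filter, a minimum of 10 counts in every library, gene span as length, removal of ribosomal RNA, transgene and marker rows, only the 2 groups compared, a replicate block, and leaving out each library.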

Additional observations from a re-analysis of the deposited data

Results flagged for a closer look

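Of the 10 genes and the 56 tested genes of the 4 lists, 9 were called as changing unequally against Vector in the 2 overexpressing strains. This was by edgeR's test of MOXop against GFPop, which called 7.07% of all genes lower and 7.48% higher. CHS3 (-1.18 on the log2 scale, FDR 0.0426) and CRH1 (-1.45, FDR 0.0146) were lower in MOXop, and so were UGP1 (-1.92, FDR 0.00706), EXG2 (-1.05, FDR 0.0401), GFA1 (-1.51, FDR 0.0144), WSC3 (-0.94, FDR 0.04998), ROM1 (-1.56, FDR 0.0214) and SLT2 (-1.28, FDR 0.0104). DSE2 was higher in MOXop (2.54, FDR 0.0283). Without MOXop replicate 2 the same test called 18 genes: CHS3 and CRH1, and of the 4 lists 10 lower and 6 higher in MOXop. Of all genes, 10.1% were then called lower and 11.6% higher. WSC3 was not called there (FDR 0.0511). CHS3 and CRH1 were both lost without GFPop replicate 1, without GFPop replicate 2 and in a fit of only the 2 groups. Over all genes, 148, 69 and 126 were called lower in these fits, against 448 with all 9 libraries. For the list genes in this comparison, MOXop replicate 2 is the only library whose removal is reported here. The ratio of SCW4 to SCW10 counts lay above Vector in every MOXop library and below it in every GFPop library, a log2 difference of 1.42 between the strains (exact permutation p = 0.1, the smallest that 3 against 3 allows).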

How the results depend on the processing

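Calls depended on the scaling. With spike-ins, the folds of the called genes kept their direction and their standard errors were 0.83 to 0.87, against 0.31 to 0.43 in the reported fit. With library sizes alone, and with spike-ins as library size, the genes called lower were 0 in each of the 3 comparisons. Over all genes, 34 to 144 and 2 to 17 were called lower in these fits. Library sizes alone also put the median over all genes at 0.53 (log2) in GFPop against Vector, 0.07 in MOXop against Vector and -0.47 in MOXop against GFPop. In GFPop against Vector, the DESeq2 Wald test called 3 of the 10 genes lower, beside 774 of 6338 genes in all, and a fit of only the 2 groups 4, beside 1055 of 6302. In MOXop against Vector, the Wald test called 6 lower, beside 1127 of 6338 genes in all. A fit of only the 2 groups called 3, beside 605 of 6253, and no filter 3, beside 859 of 6920. In MOXop against GFPop, the Wald test called 1 gene higher (SCW4), beside 809 of 6338. A fit of only the 2 groups called 0 lower there, beside 126 of 6266. Leaving out each library in turn gave 0 to 4 genes lower in GFPop against Vector, 1 to 6 in MOXop against Vector and 0 to 3 in MOXop against GFPop. Over all genes these fits called 168 to 1104, 404 to 1206 and 69 to 650 lower. Same-numbered replicates did not deviate together (3 of 9 pairs correlated over 0.1), so the samples were not taken as paired. With a replicate block, 1 gene (CRH1) instead of 2 was lower in MOXop against GFPop, and EXG1 turned to -0.059. Over all genes, 329 instead of 448 were called lower there. Sign changes were seen only for values that passed no test. With library sizes alone they were, in GFPop against Vector, GSC2 0.34, KRE6 0.10, CHS3 0.36, SCW4 0.18 and CRH1 0.42, and in MOXop against GFPop GSC2 -0.15, GAS1 -0.0087 and EXG1 -0.072. With spike-ins, GSC2 in MOXop against Vector gave -0.022. Leaving out 1 library moved GSC2 between -0.31 and 0.021, CHS3 between -0.35 and 0.088 and CRH1 between -0.15 and 0.14 in GFPop against Vector, and GAS1 between -0.15 and 0.66, BGL2 between -0.36 and 0.048 and EXG1 between -0.39 and 0.64 in MOXop against GFPop. The CRH1 to UTR2 ratio in MOXop against Vector (log2 difference 0.10) became -0.36 without MOXop replicate 2, an alternative chosen after the data had been seen. With 3 libraries a group and a common biological coefficient of variation of 0.364, fitted over all genes together, smaller changes may not have been detectable.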
